A study of Mus musculus with 6 samples.

Results

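The transcripts of 9 genes of insulin signalling were followed in the lacrimal gland (LG) of diabetic mice. They encode the insulin receptor (Insr), the adaptors Irs1 and Irs2, the PI3K subunit Pik3r1, the kinases Akt1 and Akt2, the transcription factors Foxo1 and Foxo3, and the arrestin-domain protein Txnip. The genes were chosen by name, and all 9 were found once each among the 12491 genes of the deposited table. Poly(A) RNA was sequenced from 3 T2DM and 3 vehicle libraries of male C57BL/6 mice. T2DM mice received a high-fat diet, then streptozotocin (STZ), a toxin of the insulin-producing beta cells, by intraperitoneal injection on consecutive days, and then the high-fat diet again. Vehicle mice ate a normal diet and were injected with citrate buffer, so diet, STZ and diabetes cannot be told apart. The labels give an age of 24 weeks for all mice and a time of 24 weeks after treatment for T2DM mice, which cannot both hold. The methods place collection that long after the last STZ injection, so the mice were older than the age label gives. The number of mice behind a library is not given, so a p-value here reflects only spread between libraries. In limma, the spread of each gene is moderated by that of all tested genes.

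Insulin binds its receptor, a tyrosine kinase, which phosphorylates the IRS adaptors. These recruit phosphoinositide 3-kinase through its regulatory subunits, and the lipid it makes brings AKT kinases to the membrane, where they are activated. Active AKT phosphorylates FOXO factors and keeps them out of the nucleus, and in liver Irs2 and Insr are themselves FOXO targets that insulin represses. Txnip binds thioredoxin and promotes the removal of glucose transporters from the cell surface, and its transcription is switched on by glucose through the factors MondoA and ChREBP. The LG secretes the watery layer of tears and is not one of the classical glucose-storing targets of insulin, such as liver, muscle and fat.

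Irs2 fell in the T2DM group, Txnip and Akt1 rose, and the other 6 genes did not pass the test. The call of Akt1 (limma, adjusted p = 0.0460) was lost when any 1 library was left out, and that of Txnip without some of them. Insr and Foxo1 fell just short (limma, adjusted p = 0.0529 and 0.0559). The values are FPKM, which divides fragments by transcript length and sequencing depth, and groups were compared with limma on log2(FPKM + 1), which understates the change of low genes. Of the 9 genes, 2 were higher and 1 was lower at an adjusted p under 0.05, while 12.2% of the 12135 tested genes were called, 10.5% higher and 1.70% lower. The 3 T2DM libraries lay above all 3 vehicle libraries for 4 of the genes (Insr, Akt1, Foxo1 and Txnip) and below them for 1 (Irs2), against 33.8% and 6.10% of all tested genes. The median log2 difference of the 9 genes was 0.27, beside 0.16 for all tested genes. The median of all genes depended on the scaling, at 0.31 when libraries were rescaled without their 10 most abundant genes, and at 0 by the median of ratios, a scaling that centres it. Rescaling without the 10 most abundant genes also raised all values before 1 was added, so its log2 differences were less compressed and do not reflect scaling alone. Scaled by the median of ratios, all calls were split into 476 higher and 484 lower genes in place of 1271 and 206, and Txnip and Irs2 were the members that passed, while 3.92% of tested genes were higher and 3.99% lower.

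**Figure D1:**
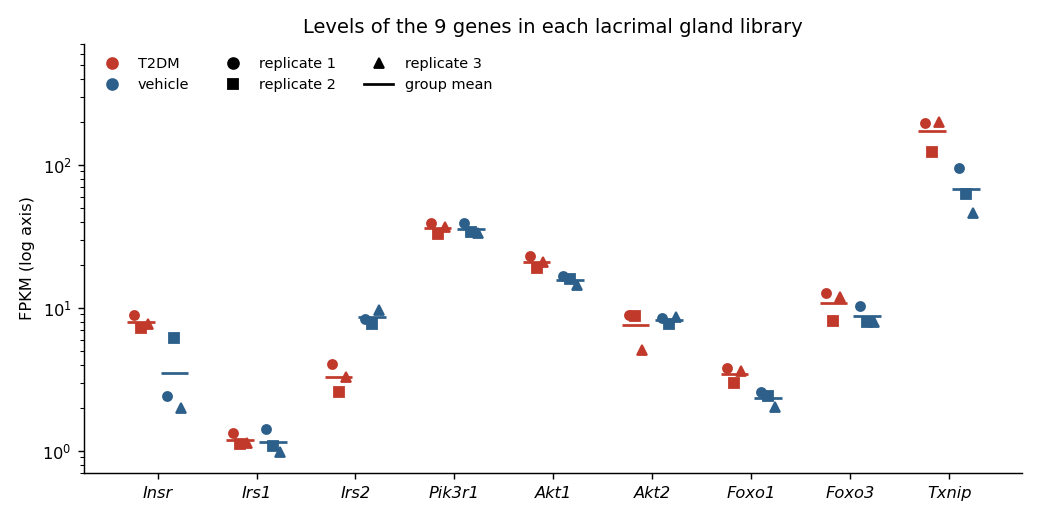
FPKM on a log axis (vertical) of each of the 9 genes in every library, with T2DM in red left of vehicle in blue, a symbol for each replicate and a bar for the group mean. Irs2 lies between 2.56 and 4.03 FPKM in the T2DM libraries, all below the vehicle libraries, and Txnip between 122 and 198 FPKM, all above them.

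Per length, Txnip was the most abundant of the 9 transcripts and Irs1 the least in both groups. In the T2DM group Txnip, at a mean of 172 FPKM, was followed by Pik3r1 (36.2 FPKM), Akt1 (20.9 FPKM), Foxo3 (10.8 FPKM), Insr (7.92 FPKM), Akt2 (7.56 FPKM), Foxo1 (3.46 FPKM), Irs2 (3.28 FPKM) and Irs1 (1.19 FPKM). In the vehicle group the order was Txnip (67.9 FPKM), Pik3r1 (35.5 FPKM), Akt1 (15.7 FPKM), Foxo3 (8.75 FPKM), Irs2 (8.57 FPKM), Akt2 (8.24 FPKM), Insr (3.52 FPKM), Foxo1 (2.34 FPKM) and Irs1 (1.16 FPKM). Within libraries, Foxo3 was above Insr in all 3 T2DM libraries, while the order of Akt2 against Foxo3 and Insr, and that of Foxo1 against Irs2, differed from library to library. In the vehicle group the order among Foxo3, Irs2 and Akt2 differed between libraries, and so did that of Insr and Foxo1.

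The libraries differed in more than these genes. Secretoglobins, small secreted proteins of exocrine glands, held 37.3% to 41.5% of the summed FPKM in T2DM libraries and 44.9% to 51.8% in vehicle libraries. Of 9 duct cell markers 4 were higher (summed level 977 to 1195 FPKM in T2DM and 703 to 764 FPKM in vehicle libraries), and of 7 B cell markers 3 were higher (11.3 to 20.4 FPKM in T2DM and 5.23 to 7.33 FPKM in vehicle libraries). All 9 acinar markers of the gland were detected. Their summed level was 1820 to 2343 FPKM in T2DM and 1337 to 1827 FPKM in vehicle libraries, and 1 of them, Rab27b, was lower. Most of that sum was Car6, at a mean of 1630 FPKM in T2DM and 1061 FPKM in vehicle. Bhlha15 averaged 202 FPKM in T2DM and 248 FPKM in vehicle, so the sum does not stand for all acinar markers. Muscle transcripts such as Myl2 were highest in T2DM replicate 3, and the salivary transcript Bpifa2 in vehicle replicate 1. The muscle markers summed to 5.67 FPKM in that T2DM library, and the salivary markers to 2307 FPKM in that vehicle library. Of the tested salivary markers all but Prol1 were highest there. Prol1 ran the other way, at 4.80, 3.73 and 15.5 FPKM in T2DM and 2.57, 0.830 and 0.701 FPKM in vehicle libraries. It did not pass (limma, adjusted p = 0.0504). Of 10 adipocyte markers 4 were in the table, at a summed 6.55 to 7.29 FPKM in T2DM and 6.58 to 8.41 FPKM in vehicle libraries. Plin4 was higher (log2 difference 0.42). Cfd lay below the vehicle libraries in all T2DM libraries and did not pass (log2 difference -0.89, limma adjusted p = 0.0643). Lipe lay above them without passing, and Fabp4 overlapped. Of the other lists, 3 of 7 myoepithelial markers and 1 macrophage marker were higher, and no marker of endothelium, fibroblasts or T cells was called. These counts moved with the scaling. By the median of ratios 1 duct, 2 B cell, 0 myoepithelial and 0 adipocyte markers were higher and 2 acinar markers lower. Rescaled without the 10 most abundant genes, 8 duct, 3 B cell, 6 myoepithelial, 2 adipocyte and 3 acinar markers were higher. So were 2 endothelial and 2 macrophage markers, beside 27.8% of all tested genes. Of the salivary markers 1 was then higher and 1 lower. In a whole gland, fewer cells of a type and less RNA per cell cannot be told apart, and the part of these cell types in the results below was not tested.

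Insr, the receptor itself, lies on the minus strand of chromosome 8 (3122061 to 3279617, GRCm38). It was at 8.85, 7.18 and 7.72 FPKM in T2DM libraries and at 2.43, 6.13 and 2.00 FPKM in vehicle libraries. Vehicle replicate 2 stood near the T2DM libraries while the other 2 vehicle libraries were low, and the groups did not overlap. The mean was 7.92 ± 0.85 FPKM in T2DM and 3.52 ± 2.27 FPKM in vehicle (SD, n = 3 each), a log2 difference of 1.09 (95% interval 0.40 to 1.78) that did not pass the test (limma, adjusted p = 0.0529). Without vehicle replicate 2 the log2 difference was 1.47 and passed (limma, adjusted p = 0.0134). It also passed with all 6 libraries when they were rescaled without their 10 most abundant genes (log2 difference 1.38, limma adjusted p = 0.0259). That setting also raises values before 1 is added. The call thus rested on 1 library and on this rescaling. Among the genes of its library, Insr stood at percentiles 65.9 to 69.2 in T2DM libraries and at percentiles 37.6, 64.3 and 32.6 in vehicle replicates 1, 2 and 3. The annotation gives Insr 5 transcripts, and a gene's FPKM in StringTie adds up transcript estimates.

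Irs1 and Irs2 encode the adaptors that the receptor phosphorylates, and only Irs2 passed the test. Irs1, on chromosome 1 (82233101 to 82291416, minus strand), was at 1.33, 1.12 and 1.13 FPKM in T2DM libraries and at 1.41, 1.09 and 0.978 FPKM in vehicle libraries. The groups overlapped, with a log2 difference of 0.03 (95% interval -0.24 to 0.29), and that sign turned under 3 of 4 other scalings and without T2DM replicate 1 or vehicle replicate 3. Irs1 shares 2822 exonic bases with Gm9747, an annotated protein-coding gene on the other strand. The library kit marks strand, but whether the abundance estimates used it is not given in the sources used here, so the level of Irs1 is uncertain.

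Irs2 lies on chromosome 8 (10984681 to 11008458, minus strand). Its levels were 4.03, 2.56 and 3.27 FPKM in T2DM libraries and 8.34, 7.66 and 9.69 FPKM in vehicle libraries. Every T2DM library was below every vehicle library, and the highest T2DM value was well short of the lowest vehicle value. The mean fell to 3.28 ± 0.74 FPKM in T2DM, against 8.57 ± 1.03 FPKM in vehicle (SD, n = 3 each), which is 0.384 of the vehicle mean. On the log2 scale the difference was -1.17 (standard error 0.15, 95% interval -1.51 to -0.83; limma, adjusted p = 0.0123), the 54th smallest p of 12135. As a rank in its own library, which no scaling moves, Irs2 stood at percentiles 34.6 to 45.0 in T2DM and 70.1 to 76.9 in vehicle libraries. The call was lost without vehicle replicate 3 (limma, adjusted p = 0.0553, log2 difference -1.08) and held when any other library was left out. Irs2 shares 162 exonic bases with 9530052E02Rik, a transcript of the other strand.

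Since both adaptors and the receptor were measured in each library, ratios between them do not depend on the scaling of libraries. The ratio of Irs2 to Irs1 was 3.02, 2.29 and 2.88 in T2DM libraries and 5.91, 7.05 and 9.91 in vehicle libraries. The ratio of Irs2 to Insr was 0.455, 0.356 and 0.424 in T2DM libraries and 3.43, 1.25 and 4.85 in vehicle libraries, so that transcripts of the adaptor outnumbered those of the receptor per length in each vehicle library and in no T2DM library. The ratio of Irs2 to Irs1 was lower in all 3 T2DM libraries (log2 difference -1.46). It is given with no test, since the gap between groups in Irs2 exceeded the spread of Irs1 and fixed the separation. For Irs2 to Insr the log2 difference was -2.75, and it is given with no test, since the separation of both genes in opposite directions fixes that of their ratio.

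**Figure D2:**
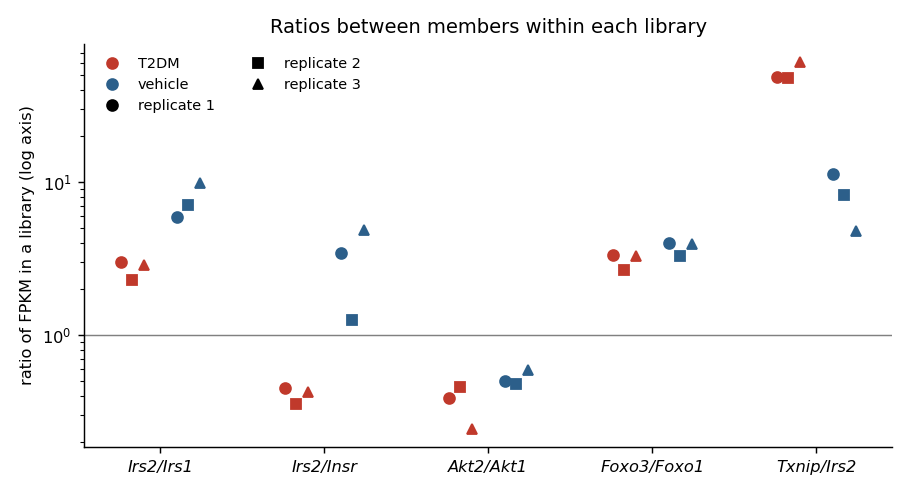
Ratio of the FPKM of 2 members inside each library (vertical, log axis), with T2DM in red left of vehicle in blue and a symbol for each replicate; the grey line marks a ratio of 1. The T2DM and vehicle libraries separate in 4 of the 5 ratios, and Txnip to Irs2 lies between 47.9 and 60.5 in T2DM and between 4.79 and 11.3 in vehicle libraries.

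Pik3r1 encodes the p85-alpha subunit, which docks on phosphorylated IRS proteins and holds the catalytic subunit. It lies on chromosome 13 (101680563 to 101768217, minus strand) and was at 39.3, 32.9 and 36.5 FPKM in T2DM libraries and at 39.1, 34.0 and 33.4 FPKM in vehicle libraries. The groups overlapped almost fully. The log2 difference was 0.03 (95% interval -0.21 to 0.27; limma, adjusted p = 0.858), and its sign turned under the same 3 scalings as that of Irs1 and without the same 2 libraries.

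Of the AKT kinases, Akt1 has broad roles in growth and survival and Akt2 serves glucose handling in insulin target tissues. Akt1 (chromosome 12, 112653821 to 112674884, minus strand) was at 22.8, 19.0 and 20.7 FPKM in T2DM libraries and at 16.7, 15.9 and 14.4 FPKM in vehicle libraries. All T2DM libraries were higher, by a small margin. The log2 difference was 0.39 (standard error 0.10; limma, adjusted p = 0.0460), and it did not pass when any 1 of the 6 libraries was left out (adjusted p 0.0536 to 0.135) or after scaling by the median of ratios, where it was 0.20 (adjusted p = 0.166). Akt2 (chromosome 7, 27591552 to 27640826, plus strand) was at 8.89, 8.70 and 5.09 FPKM in T2DM libraries and at 8.43, 7.71 and 8.57 FPKM in vehicle libraries. Its level was low in 1 library, T2DM replicate 3, in which the muscle transcript Myl2 was highest. The log2 difference of Akt2 was -0.14 (95% interval -0.57 to 0.29; limma, adjusted p = 0.618) and became 0.09 without that library. Akt2 was at 0.389, 0.458 and 0.246 of the Akt1 level in T2DM libraries and at 0.506, 0.483 and 0.594 of it in vehicle libraries, lower in T2DM in all 3 libraries (two-sided exact permutation p = 0.1, not adjusted over the ratios). That p is the smallest that 3 against 3 libraries can give.

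Foxo1 and Foxo3 encode the transcription factors that AKT holds in the cytoplasm. Foxo1 (chromosome 3, 52268336 to 52353221, plus strand) was at 3.77, 2.99 and 3.61 FPKM in T2DM libraries and at 2.59, 2.41 and 2.03 FPKM in vehicle libraries. These did not overlap, but the log2 difference of 0.41 (95% interval 0.15 to 0.68) did not pass (limma, adjusted p = 0.0559) except when rescaled without the 10 most abundant genes (0.62; limma, adjusted p = 0.0231). Foxo1 shares 674 exonic bases with the antisense gene Gm20402, so reads of both may be mixed. For Foxo3 (chromosome 10, 42181841 to 42276755, minus strand) the values were 12.7, 8.02 and 11.8 FPKM in T2DM libraries and 10.3, 7.93 and 7.99 FPKM in vehicle libraries. T2DM replicate 2 sat with the vehicle libraries and vehicle replicate 1 between the groups, and the log2 difference was 0.27 (95% interval -0.14 to 0.67; limma, adjusted p = 0.319). Their ratio, Foxo3 to Foxo1, overlapped between groups (two-sided exact permutation p = 0.2). All of these are levels of mRNA, whereas AKT and FOXO proteins are controlled by phosphorylation and location, which were not measured here.

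Txnip lies on chromosome 3 (96557957 to 96561883, plus strand). It was at 196, 122 and 198 FPKM in T2DM libraries and at 94.4, 62.8 and 46.4 FPKM in vehicle libraries. All T2DM libraries were above all vehicle libraries, although the spread within each group was wide. The mean rose to 172 ± 43 FPKM in T2DM, against 67.9 ± 24.4 FPKM in vehicle (SD, n = 3 each), a ratio of means of 2.54. The log2 difference was 1.36 (standard error 0.28, 95% interval 0.72 to 2.00; limma, adjusted p = 0.0282). Txnip was already among the more abundant genes, at percentiles 98.2 to 99.0 in T2DM and 95.7 to 97.8 in vehicle libraries. The difference stayed between 1.12 and 1.62 when any 1 library was left out, but did not pass without T2DM replicate 1 or 3 or vehicle replicate 2 or 3 (adjusted p 0.0571 to 0.0876). Txnip shares 606 exonic bases with the antisense gene Gm15441. The ratio of Txnip to Irs2 was 48.7, 47.9 and 60.5 in T2DM libraries, against 11.3, 8.19 and 4.79 in vehicle libraries, a separation that follows from that of both genes and was given no test.

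**Figure D3:**
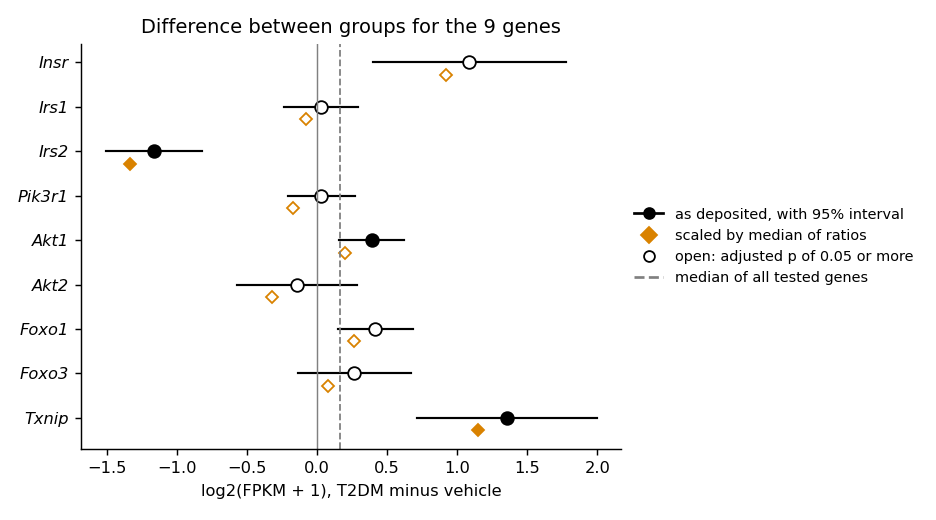
Difference of group means of log2(FPKM + 1), T2DM minus vehicle (horizontal), for each gene, with the 95% interval of limma (black) and the value after scaling by the median of ratios (orange); filled symbols passed the adjusted p of 0.05 and the dashed line is the median of all tested genes, 0.16. Irs2 at -1.17 and Txnip at 1.36 are filled on both scales, whereas Akt1 is filled only as deposited.

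The DNA before the starts of Txnip and Irs2, the members with a called change on both scales, is shown because Txnip is a known target of MondoA and ChREBP and Irs2 of FOXO factors. The 150 bases before the RefSeq start are printed from 5′ to 3′ on the strand of the gene (RefSeq, GRCm38.p6), at chr3:96557807-96557956 on the plus strand for Txnip and chr8:11008930-11009079 on the minus strand for Irs2. Capitals in Txnip mark a forkhead motif and the paired boxes of the carbohydrate response element that ChREBP and MondoA bind. Capitals in Irs2 mark an E-box and an insulin response element that is read on the other strand.
Txnip: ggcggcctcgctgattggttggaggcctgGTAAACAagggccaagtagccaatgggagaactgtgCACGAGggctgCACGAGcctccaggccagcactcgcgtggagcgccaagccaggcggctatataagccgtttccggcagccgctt
Irs2: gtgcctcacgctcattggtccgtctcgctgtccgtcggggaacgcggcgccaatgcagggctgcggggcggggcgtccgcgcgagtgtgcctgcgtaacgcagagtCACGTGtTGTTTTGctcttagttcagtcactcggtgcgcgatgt

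Motifs were searched on both strands in the 300 bases from 250 before to 50 after each start. The promoter table held 8 of the 9 genes, all but Insr, in 13 windows. The paired site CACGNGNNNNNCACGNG, written in this form after the Txnip sequence had been read, matched Txnip at -85 to -69 and none of the other 7 members searched, nor Arrdc4, a relative of Txnip, and 0.0487% of 32851 promoters hold it. The forkhead motif GTAAACA matched Txnip at -121 to -115 and also 1 window of Akt1, and 3.65% of promoters hold it. In Irs2, the E-box CACGTG lay at -44 to -39 and the insulin response element CAAAACA at -37 to -31, while 7.15% and 6.28% of promoters hold these. Irs1 carried the same 2 motifs, and whether they bear on the level of either gene was not tested. The cyclic AMP motif TGACGT (7.51% of promoters) matched no member window, and the CCAAT box, read as ATTGG, is held by 37.4% of promoters and by a window each of Akt2, Foxo1, Irs2, Pik3r1 and Txnip. The RefSeq start of Irs2, base 11008929, lies outside the gene span of the deposited table, which ends at base 11008458. A match describes letters only and shows no binding.

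Beyond the members, 138 further genes were listed around the same pathway, of which 121 were in the table and 120 were tested. Of these 120, 12 were higher and 3 were lower, where 10.5% and 1.70% of all tested genes were, and their median log2 difference was 0.23. The shares are close to those of all genes, and nothing particular to the pathway is read from them. The same shares of all tested genes apply beside the count of each list below. Scaled by the median of ratios, 4 were higher and 7 were lower. Without vehicle replicate 3 limma called 0 of them (0.206% of all tested genes were then higher and 0.132% lower), and 29 were higher and 5 lower at an unadjusted p under 0.05, as were 21.1% and 4.12% of all tested genes. Without vehicle replicate 2, 1 was higher and 1 lower, beside 1.67% and 0.446% of all tested genes.

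At the level of the receptor, 1 of 14 tested partners and brakes was higher and none lower. The called gene was Gab1, a docking protein related to the IRS adaptors, at 9.56, 7.72 and 7.72 FPKM in T2DM libraries and 5.04, 4.75 and 4.73 FPKM in vehicle libraries (log2 difference 0.67; limma, adjusted p = 0.0184). It was higher under all 4 other scalings too. Ptprf, a phosphatase that acts on the receptor, averaged 22.1 FPKM in T2DM and 15.9 FPKM in vehicle and did not pass (limma, adjusted p = 0.0652).

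Of 10 PI3K subunits and lipid phosphatases, 3 were higher, none was lower, and the median log2 difference was 0.32. Of all tested genes 10.5% were higher and 1.70% lower, with a median of 0.16. Pik3r3, the p55-gamma regulatory subunit, was at 10.02, 8.78 and 7.63 FPKM in T2DM libraries and at 4.32, 4.05 and 4.50 FPKM in vehicle libraries (log2 difference 0.88; limma, adjusted p = 0.0123). It was higher under each of the other scalings. In contrast to the overlapping levels of Pik3r1, this relative of it separated the groups by a wide gap. Pik3r2, p85-beta, was at 5.80, 6.21 and 6.29 FPKM in T2DM and 4.42, 4.41 and 4.36 FPKM in vehicle libraries (limma, adjusted p = 0.0314; 0.156 when scaled by the median of ratios). Pik3ip1, an inhibitor of the catalytic subunit, averaged 4.51 ± 1.95 FPKM in T2DM and 1.51 ± 0.51 FPKM in vehicle (SD, n = 3 each; limma, adjusted p = 0.0466; 0.0771 when so scaled).

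Rictor, the defining subunit of the mTOR complex that phosphorylates AKT, averaged 3.18 FPKM in T2DM and 2.28 FPKM in vehicle and did not pass (limma, adjusted p = 0.0580). Of 17 AKT and mTORC1 substrates and effectors none was higher and 1 was lower, Pde3b, the phosphodiesterase through which insulin lowers cyclic AMP. It was at 0.452, 0.499 and 0.437 FPKM in T2DM and 0.831, 0.896 and 1.11 FPKM in vehicle libraries, levels at which the pseudocount of 1 hides most of a change (log2 difference -0.41; limma, adjusted p = 0.0448), and it was not called when any 1 library was left out. Tbc1d4, the AKT substrate that gates glucose transporter traffic, averaged 12.1 FPKM in T2DM and 9.26 FPKM in vehicle (limma, adjusted p = 0.0504).

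Among 9 FOXO relatives and regulators 1 was lower and none higher. Sgk3, a kinase related to AKT that phosphorylates FOXO factors, was at 1.18, 1.73 and 1.01 FPKM in T2DM libraries and 2.77, 2.55 and 2.72 FPKM in vehicle libraries (log2 difference -0.69; limma, adjusted p = 0.0249), and it was also lower under each other scaling. Foxo4 averaged 12.04 FPKM in T2DM and 9.38 FPKM in vehicle and did not pass (limma, adjusted p = 0.0704). Of 20 tested genes known as FOXO targets, 4 were higher and none was lower, beside 10.5% and 1.70% of all tested genes. Pdk4, which restrains glucose oxidation, was at 2.68, 2.08 and 1.82 FPKM in T2DM and 0.819, 1.11 and 1.06 FPKM in vehicle libraries (limma, adjusted p = 0.0257). Fbxo32, a ubiquitin ligase of muscle wasting, averaged 8.12 FPKM in T2DM and 5.12 FPKM in vehicle (adjusted p = 0.0343), Ccng2, a cyclin of resting cells, 3.84 and 2.68 FPKM (adjusted p = 0.0352), and Bnip3, a mitophagy receptor, 11.1 and 6.80 FPKM (adjusted p = 0.0441, all from limma). When scaled by the median of ratios, 1 of the 20 was higher, Pdk4, beside 3.92% of all tested genes. Of the members that are FOXO targets in liver, Irs2 was lower, while Insr was higher in all T2DM libraries and did not pass. The part of FOXO factors in these levels was not tested.

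**Figure D4:**
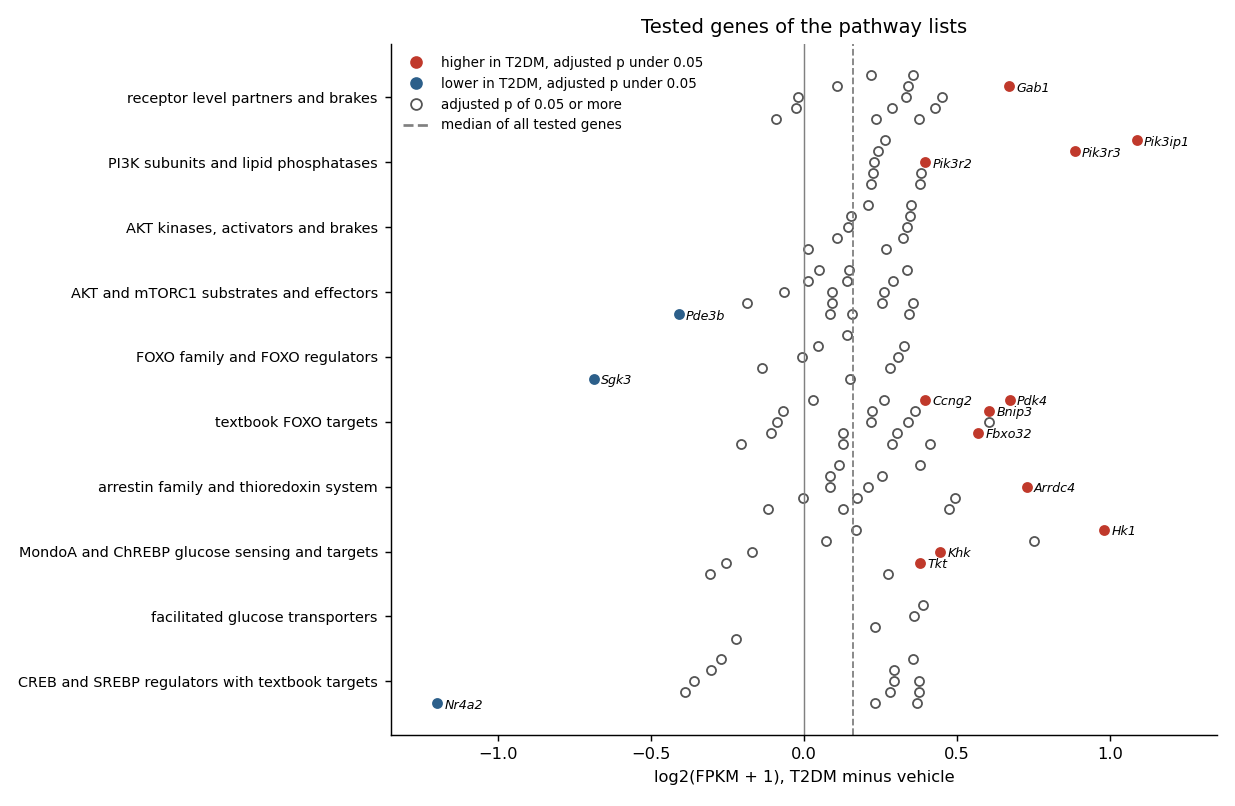
Log2 difference, T2DM minus vehicle (horizontal), of each tested gene in the 10 pathway lists; the vertical offset within a list only separates the points. Filled red points (12 genes) were higher and filled blue points (3 genes) lower at an adjusted p under 0.05, and the dashed line is the median of all tested genes, 0.16.

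Around Txnip, 1 of 13 arrestin and thioredoxin genes was higher and none lower. Arrdc4, the arrestin-domain relative of Txnip that MondoA also controls, was at 11.96, 10.4 and 16.7 FPKM in T2DM libraries and 8.59, 7.03 and 6.50 FPKM in vehicle libraries (log2 difference 0.73; limma, adjusted p = 0.0383; 0.0952 when scaled by the median of ratios). As for Txnip, T2DM replicate 3 was the highest library and vehicle replicate 3 the lowest. The likeness ended there, since T2DM replicate 1 was about as high as replicate 3 for Txnip (196 and 198 FPKM) but well below it for Arrdc4. Of 10 genes of MondoA and ChREBP sensing and their targets, 3 were higher and none lower, beside 10.5% and 1.70% of all tested genes. Hk1, the hexokinase of most tissues, was at 15.7, 9.92 and 11.2 FPKM in T2DM and 6.28, 4.78 and 5.87 FPKM in vehicle libraries (limma, adjusted p = 0.0211), and it was higher under every other scaling. Tkt, of the pentose phosphate pathway, averaged 12.9 ± 0.9 FPKM in T2DM and 9.68 ± 0.37 FPKM in vehicle (SD, n = 3 each), and Khk, the fructose kinase, 4.20 ± 0.08 FPKM in T2DM and 2.84 ± 0.44 FPKM in vehicle (SD, n = 3 each); neither was called when scaled by the median of ratios. By that scaling 1 of the 10 genes was higher and 1 lower, beside 3.92% and 3.99% of all tested genes. The lower one was Hk2, the hexokinase of insulin-sensitive tissues, named after its values were seen. It was at 19.7, 16.6 and 16.3 FPKM in T2DM and 23.2, 20.03 and 20.1 FPKM in vehicle libraries, all T2DM libraries below the vehicle libraries, and it passed by the median of ratios (log2 difference -0.45; limma, adjusted p = 0.0288) but not as deposited (-0.26, adjusted p = 0.141). Klf10, a glucose-induced repressor, averaged 12.4 FPKM in T2DM and 6.96 FPKM in vehicle without passing (limma, adjusted p = 0.0662). Of the facilitated glucose transporters 4 were tested and none was called by limma at the adjusted p. At an unadjusted limma p under 0.05 Slc2a4 and Slc2a8 were higher, as were 28.5% of all tested genes. Slc2a4, the insulin-regulated GLUT4, averaged 1.62 FPKM in T2DM and 1.002 FPKM in vehicle, and Slc2a1, the common GLUT1, 2.76 FPKM in T2DM and 3.29 FPKM in vehicle.

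Irs2 is also known as a target of CREB, and of SREBP as a repressor, so their regulators and targets were listed as well. Of 13 tested, 1 was lower and none higher. Nr4a2, a CREB target and orphan receptor, was at 6.26, 4.34 and 4.94 FPKM in T2DM libraries and 12.4, 9.45 and 18.9 FPKM in vehicle libraries (log2 difference -1.20; limma, adjusted p = 0.0249). Srebf1 averaged 10.5 FPKM in T2DM and 13.96 FPKM in vehicle (limma, adjusted p = 0.0700), and its target Insig1 16.4 FPKM in T2DM and 20.0 FPKM in vehicle (adjusted p = 0.0815, limma). Scaled by the median of ratios, Srebf1 and Insig1 were lower (adjusted p = 0.0235 and adjusted p = 0.0232, limma).

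Of 10922 other tested genes at 1 FPKM or more on average in either group, those whose centred log2 levels lay nearest to Irs2 over the 6 libraries were Hist2h3c2, Klk1b11, Arntl, Nr4a2 and Srp14 (root mean square difference 0.17, 0.17, 0.185, 0.186 and 0.203 on the log2 scale). Arntl, the clock factor BMAL1, was at 0.742, 0.650 and 1.01 FPKM in T2DM and 3.95, 2.99 and 3.67 FPKM in vehicle libraries. Nearest to Txnip were Wnk2, Cyp2a4, Dusp4, Gprc5b and Shank2 (0.21, 0.229, 0.249, 0.253 and 0.261). Dusp4, a phosphatase of MAP kinases, shared the low value in T2DM replicate 2, at 21.3, 13.1 and 21.01 FPKM in T2DM and 10.2, 8.81 and 7.14 FPKM in vehicle libraries. Hist2h3c2, Klk1b11 and Cyp2a4 belong to families of near-identical copies, so their levels are uncertain, and with 2 groups any gene of a like difference comes near.

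**Figure D5:**
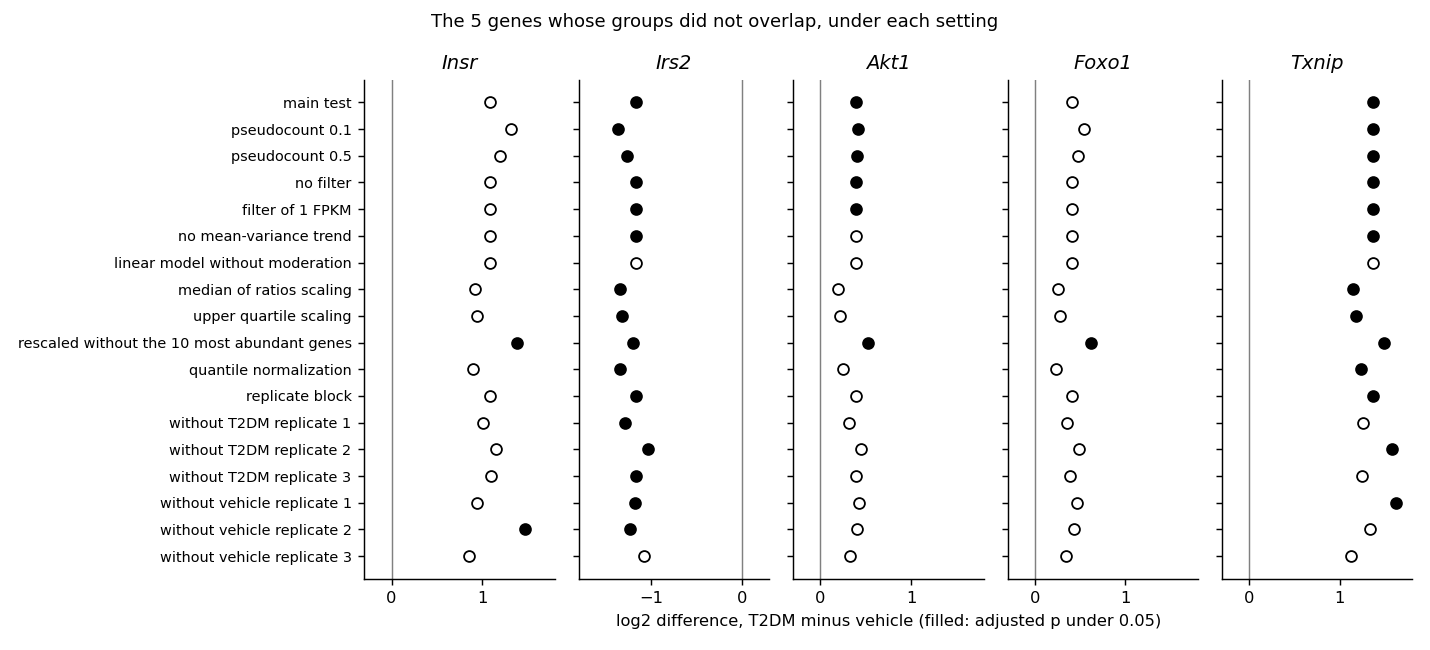
Log2 difference, T2DM minus vehicle (horizontal), of the 5 genes whose groups did not overlap, under the main test and 17 alternatives (rows); filled points passed the adjusted p of 0.05. Irs2 is filled in all but the linear model without moderation and the fit without vehicle replicate 3, whereas Akt1 and Foxo1 are mostly open.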

How the data were processed

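All 6 libraries were grouped by their titles. The deposited gene-level FPKM were computed by the authors with StringTie and Ballgown after cutadapt trimming and HISAT2 alignment to GRCm38. Although hg19 and GRCh37 appear in the submitters' processing notes, IDs are from mouse, and all 9 members lie where GENCODE M21 places them. The 12491 listed genes are protein coding, and 1 line of the copy used here was empty. FPKM hold no read numbers and whole reads could not be recovered, so depth and counting error are unknown. The 12135 genes averaging 0.5 FPKM or more in either group were tested with limma 3.58.1 (R 4.3.3) on log2(FPKM + 1), with a mean-variance trend, no covariate and Benjamini-Hochberg adjustment. Exact permutation p-values are given, unadjusted, only for the ratios of Akt2 to Akt1 and of Foxo3 to Foxo1. The fit was tested on simulated data with independent noise, drawn from its own moderated variances, and no shift common to all genes. That test therefore cannot speak to the scaling or to the weight of single libraries. Members, lists and named genes (members, up to 4 genes per list by p, 5 nearest genes for Irs2 and Txnip) were chosen with earlier results of these data known. A gene of the lists is not reported here and was left out of their counts. Alternatives were pseudocounts, filters, tests, scalings, a block and leaving out libraries.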

Additional observations from a re-analysis of the deposited data

How the results depend on the processing

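Pseudocounts of 0.1 or 0.5, no filter and a filter of 1 FPKM changed neither the 2 higher and 1 lower members nor the counts of pathway genes by over 1.5 times. Without a mean-variance trend 1 member was higher, beside 9.84% of all tested genes. The linear model without moderation called 0 of all 12135 genes at the adjusted p, so its 0 members and 0 pathway genes say nothing about them. At an unadjusted p under 0.05 it gave 3 higher and 1 lower member and 38 higher and 6 lower pathway genes, beside 24.4% and 4.02% of all genes. Under scaling by the median of ratios, by the upper quartile and by quantile normalization, 1 member was higher in each, 4, 5 and 4 pathway genes were higher and 7, 6 and 6 lower, beside 3.92%, 4.43% and 3.71% of all genes higher and 3.99%, 3.46% and 3.38% lower. Rescaled without the 10 most abundant genes, 4 members and 42 pathway genes were higher, as were 27.8% of all tested genes. With 1 library left out, 0 to 1 members were higher and 0 to 1 lower, and 0 to 8 pathway genes were higher and 0 to 3 lower, while 0.206% to 7.31% of all genes were higher and 0.132% to 1.07% lower. Calls of the members are from limma except where the linear model is named, and with 1 library left out 4 or 5 members were higher and 1 lower at an unadjusted p, beside 19.8% to 27.4% and 3.61% to 4.25% of all genes. The log2 difference of Irs1 turned to -0.08, -0.07 and -0.14 by the median of ratios, upper quartile and quantile scaling, and to -0.02 and -0.03 without T2DM replicate 1 or vehicle replicate 3 (range with 1 library left out -0.03 to 0.11). That of Pik3r1 turned to -0.17, -0.14 and -0.05 by these scalings and to -0.03 and -0.01 without the same libraries, and Akt2 to 0.09 without T2DM replicate 3 (range -0.26 to 0.09). The cause was not tested. All 5 ratios kept their direction with plain ratios, with 0.1 FPKM added and with any library left out; the last left the log2 difference of Irs2 to Irs1 between -1.62 and -1.25. Libraries with the same replicate number did not vary together (r across genes 0.03, 0.02 and 0), and T2DM replicate 2 was closest to vehicle replicate 3. With the replicate number as a block, 1 member was higher, and 5 pathway genes were higher and 1 lower, beside 4.54% and 0.808% of all genes.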
